A study of Mus musculus with 21 samples.

Results

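Foxa1, Foxa2, Foxa3, Onecut1, Onecut2 and Prox1 are 6 genes for transcription factors of hepatocyte identity, called members here. They were chosen by name, not by any measured value, out of 21887 protein-coding genes, but with earlier results of these data known. Every peak within 25 kb of a gene body was listed (RefSeq positions, genome build mm10). All 6 were found in the annotation. The windows ran from 54.1 kb for Foxa2 to 108 kb for Onecut2, with a median of 69.0 kb against 67.2 kb for all protein-coding genes. The peaks came from chromatin immunoprecipitation with sequencing (ChIP-seq), which maps where a protein or histone mark sits on the genome, in primary hepatocytes perfused from livers of mice at postnatal day 90, of a mixed C57/B6 and 129 strain. WT mice were Arid1a Fl/Fl without Cre. KO mice were Arid1a Fl/Fl; Alb-cre, in which the albumin promoter drives Cre in hepatocytes, so all WT and KO mice carried the floxed alleles. Of 21 samples, 11 have a peak list: C/EBPα in 2 WT and 2 KO libraries, dimethylated lysine 4 of histone H3 (H3K4me2) in 3 WT and 3 KO libraries, and the V5 tag in 1 library from V5-Arid1a transgenic mice, which stands for ARID1A in mice with no Arid1a deletion. The other 10 are inputs and were not used.

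FOXA1, FOXA2 and FOXA3 are forkhead proteins. FOXA1 and FOXA2 can bind their sites on nucleosomes and are together required for the onset of liver development. ONECUT1 (HNF6) and ONECUT2 bind DNA through a cut domain and a homeodomain and act in the choice between hepatocyte and biliary fate. PROX1 is a homeodomain protein needed for hepatoblasts to migrate into the growing liver bud, and in the adult liver it acts as a co-repressor of nuclear receptors such as HNF4α. C/EBPα is a leucine-zipper factor of the mature hepatocyte, H3K4me2 marks promoters and enhancers, and ARID1A belongs to the SWI/SNF complex, which moves nucleosomes.

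The C/EBPα lists held 16178 to 23646 peaks, the ARID1A list 5726 and the H3K4me2 lists 24908 to 175797. The longest, H3K4me2 KO list 3, stood apart: its median peak was 429 bp wide, against 634 to 918 bp in the other H3K4me2 lists. The sources used here give no read numbers. Depth is therefore unknown, and a missing peak means only that none was called or kept. The lists cannot show whether Arid1a was removed, nor do the labels say whether replicates were separate mice, so p-values measure only the spread between these samples. At the gene ends (1 kb each side) of 8 hepatocyte marker genes, H3K4me2 had a peak in all 6 lists at 8, and C/EBPα had one in all 4 lists at 3 (Alb, Ttr and Cps1). At 4 of the 8, C/EBPα had no peak in any list. Of 6 Kupffer cell and 6 endothelial markers, 0 had an H3K4me2 peak in all 6 lists, and 1 of 6 stellate markers (Reln) and 1 of 6 biliary markers (Epcam) did. H3K4me2 was absent from every list at 5 Kupffer cell, 0 endothelial, 1 stellate and 1 biliary markers. The lists thus do hold H3K4me2 peaks at most endothelial, stellate and biliary markers. None of these 4 marker lists had a gene with a C/EBPα peak in all 4 lists.

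RefSeq promoter sequence (GRCm38.p6) matched 5 of the 6 members, Foxa1, Foxa2, Foxa3, Onecut1 and Prox1, with 8 listed starts. No entry matched Onecut2. Of the 8 starts, 3 are shown as examples of different peak patterns. The outer Foxa2 start was the single member start with a C/EBPα peak in all 4 lists. The Foxa3 start had H3K4me2 in all 6 lists and no C/EBPα, as did the Foxa1, Onecut1, inner Foxa2 and inner Prox1 starts. The outer Prox1 start had H3K4me2 in 3 WT lists and 1 KO list. Each line gives the 250 bases before the start, 5′ to 3′ on the minus strand, and capitals mark a motif match.

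Foxa2 outer start, chr2:148046970-148047219: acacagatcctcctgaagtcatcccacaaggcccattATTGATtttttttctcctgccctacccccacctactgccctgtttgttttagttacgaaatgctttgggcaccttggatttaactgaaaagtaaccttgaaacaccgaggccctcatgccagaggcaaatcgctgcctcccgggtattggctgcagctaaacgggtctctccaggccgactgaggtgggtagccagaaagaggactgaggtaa

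Foxa3 start, chr7:19023540-19023789: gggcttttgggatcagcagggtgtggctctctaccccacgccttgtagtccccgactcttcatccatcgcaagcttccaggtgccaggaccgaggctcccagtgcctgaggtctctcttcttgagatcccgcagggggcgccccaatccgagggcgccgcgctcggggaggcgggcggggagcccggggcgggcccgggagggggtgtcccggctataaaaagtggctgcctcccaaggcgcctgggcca

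Prox1 outer start, chr1:190170828-190171077: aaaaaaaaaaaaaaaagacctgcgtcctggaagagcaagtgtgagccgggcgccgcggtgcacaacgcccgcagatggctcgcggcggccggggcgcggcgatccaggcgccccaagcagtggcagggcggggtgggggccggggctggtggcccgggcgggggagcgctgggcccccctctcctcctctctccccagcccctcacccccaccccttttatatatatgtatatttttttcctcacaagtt

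Motifs were searched on both strands from 250 bases before to 50 after each start: TTGCNNAA for C/EBP, TGTTTNC for forkhead proteins and ATCAAT for Onecut proteins. The C/EBP letters occur in 10.8% of all 32851 RefSeq promoters of that length, the forkhead letters in 20.5% and the Onecut letters in 7.54%. Among the 8 member promoters, Foxa2 held 1 Onecut match, ATTGAT on the opposite strand, 213 bases before the outer start. Foxa1 held 1 forkhead match, GTAAACA on the opposite strand, 141 bases before its start, and Prox1 held 1, TGTTTGC, 120 bases before its inner start. The C/EBP letters were in none of the 8 windows, the Foxa2 promoter with the C/EBPα peak included. That C/EBPα region reaches beyond the searched window on both sides, and the rest of it was not searched. These matches describe letters in a window and not sites of binding.

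**Figure D1:**
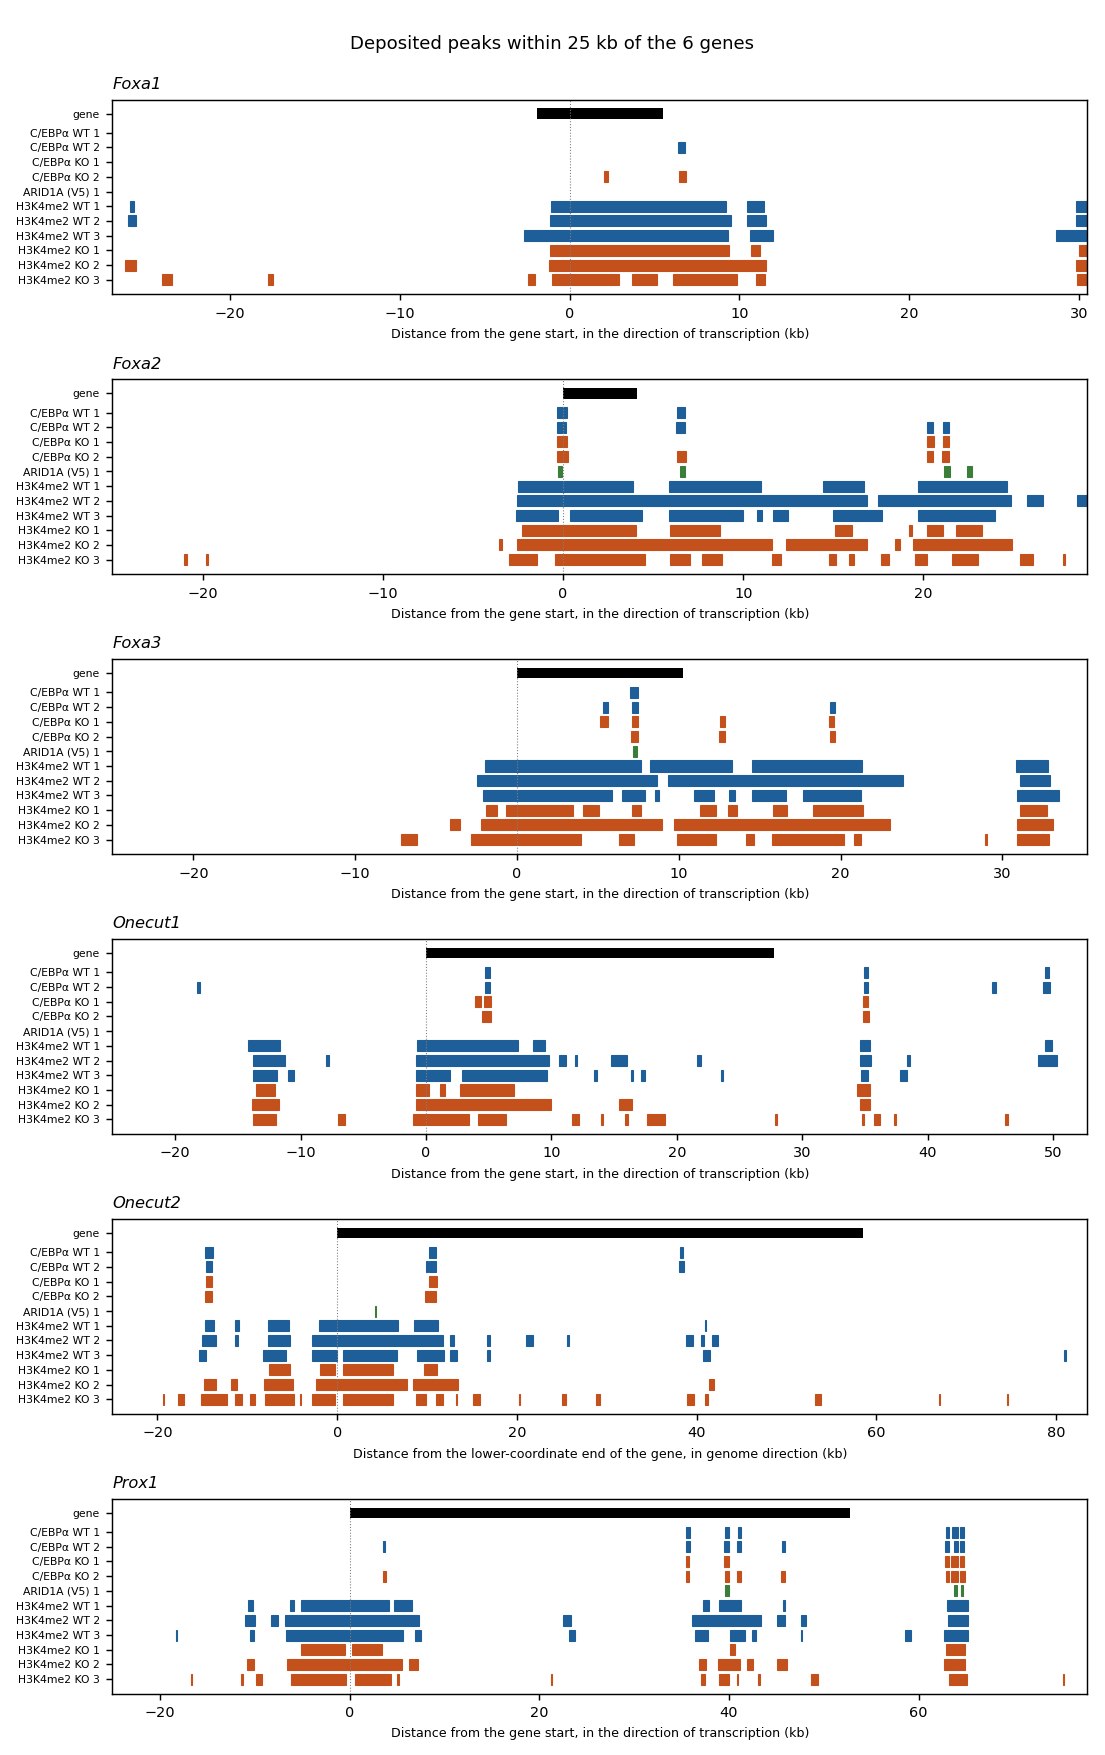
Each panel draws the deposited peaks of 1 gene as bars, with 1 row per list (blue WT, orange KO, green ARID1A), against distance from the gene start in kb (Foxa1 from its listed start, Onecut2 from its lower-coordinate end). Broad H3K4me2 peaks lie over or near the zero point in WT and KO lists. Some lists have no peak over that point at Foxa2, Onecut2 and Prox1. C/EBPα peaks lie mostly inside or downstream of the genes.

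The first comparison asks whether C/EBPα had peaks at the same places near these genes with and without Arid1a. In the 6 windows the 4 lists merged into 28 C/EBPα regions. A region is called kept when all 4 lists have a peak there, lost when the 2 WT lists but no KO list have one, gained when only the 2 KO lists do, and mixed otherwise. Of the 28, 11 were kept, 2 were lost (1 each at Onecut1 and Onecut2), 1 was gained (at Foxa3) and 14 were mixed. The kept share was 39.3%, beside 42.8% of all 27244 merged regions. The 2 lost regions were 13.3% of the 15 present in both WT lists (exact Clopper-Pearson 95% interval 1.66 to 40.5), beside 19.3% genome-wide. The 1 gained region was 6.67% of the 15 present in both KO lists (0.169 to 31.9), beside 5.27%. Both intervals cover counting of regions only and treat regions as independent, though some lie close together and all come from the same 4 lists. They do not cover the spread between libraries, so no conclusion is drawn from them.

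Leaving out a list loosens the rule for lost and gained, so these counts can then only stay or rise. No genome-wide share under the looser rule is set beside them. Without WT list 1 or without KO list 2, 4 regions would be called lost. Without WT list 2, 4 would be called gained, and without KO list 1 or KO list 2, 2 would. The lists also differed within a genotype: WT list 1 had a peak at 15 of the 28 regions, WT list 2 at 25, KO list 1 at 17 and KO list 2 at 22. Of the regions in either list, 60% were shared by the WT pair and 62.5% by the KO pair, and the highest share, 74.1%, was between WT list 2 and KO list 2.

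Foxa1, Foxa2 and Foxa3 had 2, 4 and 4 of the regions, and none was lost. Foxa1 had no kept region and was the single member without one, where 38.5% of all gene windows had at least 1. A region 905 bp beyond its 3′ end (chr12:57539277-57539723) had a 396-bp peak in WT list 2 and a 368-bp peak in KO list 2. A second, inside the gene (chr12:57543834-57544111), had a 278-bp peak in KO list 2 alone. Foxa1 therefore had a peak in the second list of each genotype and none in the first.

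Foxa2 carried a kept region over its outer start (chr2:148046714-148047327), with peaks of 538 and 526 bp in WT and 581 and 576 bp in KO. C/EBPα lists have no strength value, so peak width within a list stands in for it: these 4 peaks were wider than 80.7% to 83.9% of their lists. Width at the Foxa2 start thus hardly varied, with a difference of means (KO minus WT) of -0.892 percentile points and overlapping genotypes. Just 4.2% of all 32812 listed starts had a kept C/EBPα region, as had 1 of the 8 member starts. The other 3 Foxa2 regions lay downstream of its 3′ end, at the long non-coding RNA gene 9030622O22Rik. Of these, chr2:148040154-148040679 lacked a peak in KO list 1, with 436 and 507 bp in WT and 465 bp in KO list 2. The other two, chr2:148025540-148025915 and chr2:148026388-148026798, lacked one in WT list 1.

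Foxa3 held the gained region (chr7:19010685-19011032), 2251 bp beyond its 3′ end. Its peaks were 291 bp in KO list 1 and 339 bp in KO list 2, with none in either WT list. Both were narrow, wider than 6.87% and 31.3% of their lists, and H3K4me2 had a peak there in WT lists 1 and 2 and in KO list 2. With only peaks of at least 395 bp it was no longer gained, as both of its C/EBPα peaks are narrower than that. Foxa3 was 1 of the 5.89% of gene windows with a gained region, genome-wide. Its kept region lay inside the gene, 7007 bp from the start (chr7:19016052-19016532), with peaks of 476 and 334 bp in WT and 379 and 399 bp in KO. That region overlapped an ARID1A peak, and its widths overlapped between genotypes. The remaining 2 regions were mixed: chr7:19017910-19018383 in the gene (309 bp in WT list 2, 474 bp in KO list 1) and chr7:19003869-19004244 at the neighbouring gene Irf2bp1, which lacked a peak in WT list 1.

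The Onecut genes held both lost regions, and 12.3% of all gene windows had at least 1. The Onecut1 region lay 21445 bp beyond the 3′ end (chr9:74911093-74911636), with peaks of 292 bp in WT list 1 and 544 bp in WT list 2. The first was among the narrower peaks of its list (percentile 7.75) and the second among the wider (83.6). H3K4me2 had a peak there in WT lists 1 and 2 and in no KO list. The region was no longer lost when only the 16178 widest peaks of each list, or only peaks of at least 395 bp, were used. Both filters drop its 292-bp peak. Onecut1 also had 2 kept regions. The one inside the gene, 4441 bp from the start and at the long non-coding RNA gene Gm38678 (chr9:74866362-74867117), had peaks of 396 and 405 bp in WT and 539 and 706 bp in KO. Its width percentile was 51.9 and 57.8 in WT and 75.4 and 91.5 in KO, so both KO lists lay above both WT lists. The other (chr9:74896734-74897203, 7086 bp downstream) had peaks of 324 to 413 bp, and its genotypes overlapped. The 3 mixed regions each had a peak in 1 list: chr9:74843659-74843918 at the long non-coding RNA gene Gm33562 and chr9:74907015-74907333 in WT list 2, and chr9:74865863-74866289 in KO list 1.

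Onecut2 held the widest C/EBPα peaks of the 6 genes. The kept region 13822 bp below its lower-coordinate end (chr18:64325369-64326210) had peaks of 829 and 759 bp in WT and 764 and 790 bp in KO. The kept region inside the gene (chr18:64350243-64351089) had peaks of 747 and 838 bp in WT and 808 and 791 bp in KO. These 2 were the only member regions above the 90th width percentile in every list. Their KO percentiles lay below their WT percentiles, with differences of means of -3.14 and -2.30 points. Percentiles rank a peak within its own list. The median peak of the lists was 391 and 381 bp in WT and 421 and 396 bp in KO. In bp, the widths at both of these regions overlapped between genotypes. The lost Onecut2 region (chr18:64378017-64378572, inside the gene) had peaks of 424 and 556 bp in WT, wider than 61.2% and 84.9% of their lists, and none in KO. No H3K4me2 list had a peak at that lost region, unlike the one at Onecut1. It was called lost under each of the 11 alternatives tried, against 7 of 11 for the Onecut1 region. Most of these could not change the call. No window setting drops a region inside a gene, and leaving out a list undoes neither call. The Onecut1 region fell outside the 10-kb and gene-body windows. With the filters on peak width, the Onecut2 region stayed lost and the Onecut1 region did not. This restates the widths: the filters drop the 292-bp Onecut1 peak of WT list 1 and keep both Onecut2 peaks. The mixed region, chr18:64349840-64350130, had a peak in the second list of each genotype.

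Prox1 had the most regions, 8, of which 5 were kept and none was lost or gained. Kept regions at chr1:190105968-190106497, chr1:190106680-190107412 and chr1:190107588-190108009 formed a cluster 10026 to 11538 bp beyond the 3′ end. In the middle one, the peaks were 639 and 449 bp wide in WT and 711 and 718 bp in KO. H3K4me2 had a peak at all 3 in all 6 lists, and ARID1A at the first 2. Inside the gene, chr1:190130772-190131310 had peaks of 487 and 539 bp in WT and 467 and 444 bp in KO, and chr1:190134944-190135377 had 434 and 410 bp in WT and 379 and 355 bp in KO. Both KO percentiles were below both WT percentiles at these 2 regions, with differences of means of -17.5 and -24.9 points. The second had no H3K4me2 peak in any list. Of the 3 mixed regions, the one nearest to a start lay 2179 bp downstream of the inner start (chr1:190167014-190167336), with 282 bp in WT list 2 and 281 bp in KO list 2.

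Over the 11 kept regions, width percentiles were higher in both KO lists at 1 region and lower at 4, and overlapped at 6. The same held at 14.7% (higher) and 27.8% (lower) of all 11664 kept regions. A lower percentile is not always a narrower peak, since the KO lists had wider median peaks. Of the 4 lower regions, those at Onecut2 overlapped between genotypes in bp, and those at Prox1 had narrower peaks in both KO lists. The exact permutation test cannot go below p = 0.33 with 2 against 2 libraries, so none of these differences can pass a threshold of 0.05. The mean width percentile had a median of 69.1 in the 11 kept member regions, 28.1 in the 14 mixed ones and 58.6 in all kept regions.

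**Figure D2:**
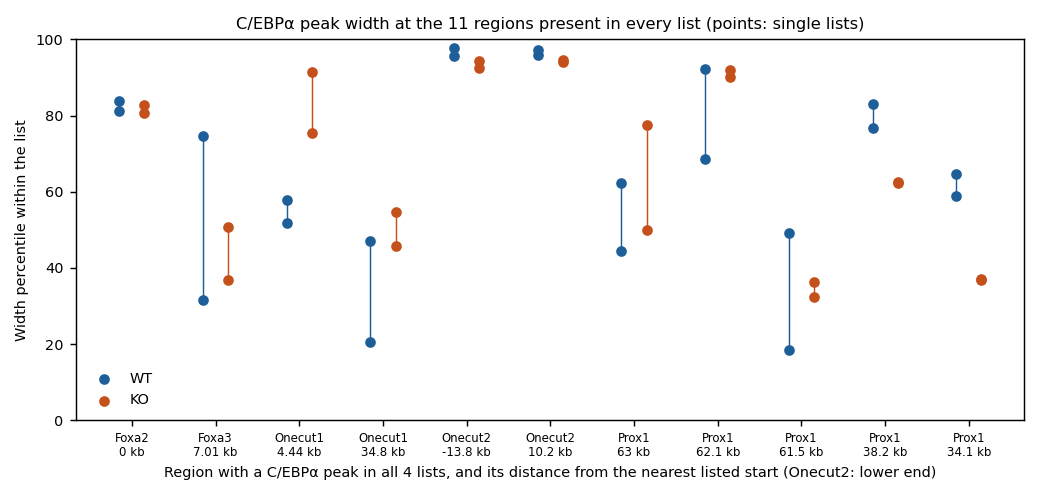
Points give the width percentile of the C/EBPα peak within its list (y axis, percent) in each WT (blue) and KO (orange) list, at the 11 kept regions, labelled by distance in kb from the nearest listed start (Onecut2 from its lower end). The KO points lie above the WT points at the Onecut1 region 4.44 kb into the gene and below them at 4 regions of Onecut2 and Prox1.

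Counted as peaks per list, C/EBPα overlapped between genotypes at all 6 genes. The windows together held 15 and 25 peaks in the WT lists and 17 and 22 in the KO lists. The means were 20 ± 7.07 in WT and 19.5 ± 3.54 in KO (SD, n = 2 each), and the difference of -0.5 had an exact permutation p of 1 (two-sided). The genotype difference was far smaller than the gap between the WT lists. Leaving out single lists turned its sign: it was 4.5 without WT list 2 and 2 without KO list 1.

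By gene, Prox1 had 6 and 8 peaks in the WT lists and 5 and 8 in the KO lists. These counts were at or above those of 97.0% to 99.1% of all gene windows, ties included, though its window is long. Onecut1 had 3 and 5 in WT and 3 and 2 in KO. Onecut2 had 3 and 4 in WT and 2 and 3 in KO. At both Onecut genes the KO mean was lower (differences of -1.5 and -1 peaks), with 1 value shared by the genotypes. The Onecut1 difference turned to 0.5 with 10 kb on each side or the gene body alone and to 1 with peaks of at least 395 bp. Foxa3 had 1 and 3 in WT and 4 and 3 in KO, and Foxa2 had 2 and 4 in WT and 3 and 4 in KO. Foxa1 had 0 and 1 in WT and 0 and 2 in KO. No gene had KO lists both below or both above the WT lists, where 8.75% of all gene windows had both below and 3.71% both above. The exact permutation p was 0.667 for Foxa3, Onecut1 and Onecut2 and 1 for the others, and the Benjamini-Hochberg adjusted p over the 6 genes was 1.

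**Figure D3:**
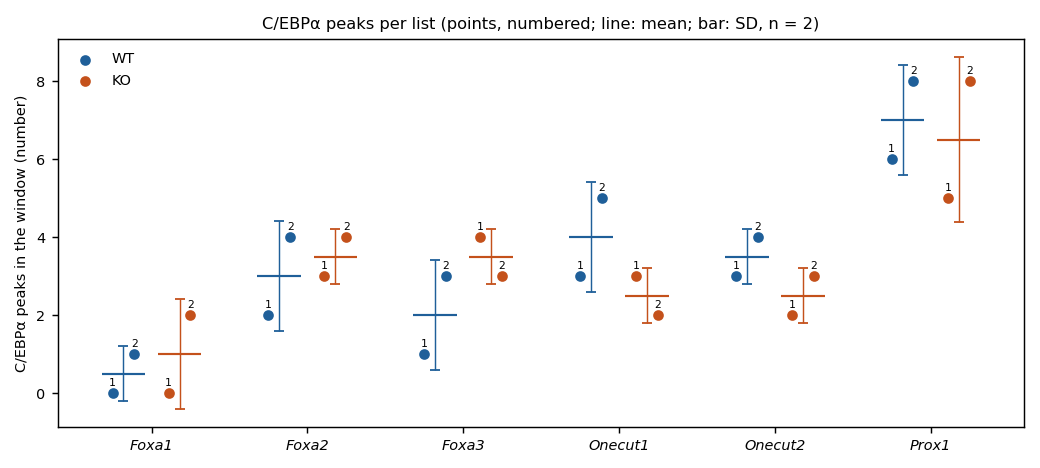
Numbered points give C/EBPα peaks in the window (y axis, number) in each WT (blue) and KO (orange) list, with the mean as a line and the SD as a bar (n = 2). Prox1 is highest with 5 to 8 peaks, Foxa1 lowest with 0 to 2, and WT and KO values overlap at every gene.

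ARID1A had 9 peaks at 4 of the 6 members and none at Foxa1 or Onecut1, where 20.2% of all gene windows had at least 1. The list comes from 1 library, so these positions have no replicate. Foxa2 had 4. One of them (chr2:148047011-148047240) had its nearer edge 42 bp upstream of the outer start, overlapped the sequence printed above and lay inside the kept C/EBPα region. The other 3 lay at 9030622O22Rik: chr2:148040208-148040482 and chr2:148025471-148025846 overlapped mixed C/EBPα regions, and chr2:148024279-148024563 overlapped none. Prox1 had 3, at chr1:190106141-190106406 and chr1:190106738-190107093 in the downstream cluster and at chr1:190130835-190131260 inside the gene, each in a kept region. Foxa3 had 1 in its kept region (chr7:19016129-19016354). Onecut2 had 1 inside the gene (chr18:64344189-64344392), with no C/EBPα peak in any list.

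Of the 9 ARID1A peaks, 7 overlapped a C/EBPα region, against 82.9% of all ARID1A peaks. From the other side, 7 of the 28 C/EBPα regions (25%) had an ARID1A peak, beside 17.2% of all regions, and 5 of the 11 kept ones (45.5%) did, beside 30.9%. None of the 2 lost regions or the gained region had one. H3K4me2 had a peak in all 6 lists at 15 of the 28 C/EBPα regions (53.6%, beside 26.7% of all regions) and in no list at 4 (14.3%, beside 18%).

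The second comparison asks where H3K4me2 lay at these genes with and without Arid1a. Of the 8 listed starts, 6 lay inside an H3K4me2 peak in all 6 lists, where 21.4% of all listed starts did. These were the starts of Foxa1, Foxa3 and Onecut1, the inner pair of Foxa2 starts and the inner Prox1 start. Most of the peaks over them were among the widest of their lists.

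At Foxa1 the peak over the start was 10.3, 10.6 and 12.0 kb wide in WT and 10.6, 12.8 and 3.93 kb in KO lists 1 to 3. At Foxa3 it was 9.62, 11.2 and 7.99 kb in WT and 4.12, 11.2 and 6.80 kb in KO. At Onecut1 it was 8.03, 10.6 and 2.73 kb in WT and 1.04, 10.8 and 4.42 kb in KO. At each of these genes the KO list 2 peak was at least as wide as the widest WT peak, and another KO list lay below every WT list. The 1.04-kb peak of Onecut1 was wider than 59.7% of its list, whereas the peaks at Foxa1 and Foxa3 were wider than 97.7% or more of theirs. At the inner Prox1 start it was 9.22, 14.2 and 12.4 kb in WT and 3.20, 12.1 and 3.81 kb in KO, so KO list 2 lay within the WT range and the other 2 KO lists below it. At the inner Foxa2 starts the peak was 6.40, 19.4 and 4.01 kb in WT and 6.34, 14.1 and 4.97 kb in KO.

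The outer starts of Foxa2 and Prox1 were the exceptions. The outer Foxa2 start had a peak in every list but WT list 3. The outer Prox1 start (chr1, 190170827) had one in WT lists 1, 2 and 3, of 9.22, 14.2 and 12.4 kb, and in KO list 2, of 12.1 kb, but not in KO lists 1 and 3. In KO list 1 it fell between a peak that ended at 190170610 and one that began at 190171260. In KO list 3 the flanking peaks ended at 190170238 and began at 190171167. The whole sequence printed for that start lies between the flanking peaks in both lists. A start with H3K4me2 in all 3 WT lists and 1 KO list was found at 3.04% of all listed starts. KO list 3 is the list of narrow peaks, and without it the Prox1 start had a peak in 1 of the other two KO lists. The lower end of Onecut2 had a peak in WT lists 1 and 2 and KO list 2.

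Bases of each window inside H3K4me2 peaks also overlapped between genotypes at all 6 genes. The 6 windows together had 100.5, 137.6 and 105.2 kb covered in WT lists 1 to 3 and 67.5, 122.4 and 94.4 kb in KO lists 1 to 3. The means were 114 ± 20.2 kb in WT and 94.8 ± 27.4 kb in KO (SD, n = 3 each), and the difference of -19.7 kb had an exact permutation p of 0.4 (two-sided). KO list 1, which also covers the least of the genome (28.0 Mb, against 48.4 to 102 Mb in the other lists), was lowest, and WT list 2 was highest. As a percent of all bases a list covers, the 6 windows held 0.207, 0.150 and 0.204 in WT and 0.241, 0.143 and 0.0922 in KO. By that measure KO list 1 was highest and KO list 3 lowest, and the difference of means was -0.0281 (exact permutation p = 0.6). Without KO list 1 the difference was -6.03 kb, and without KO list 3 it was -19.5 kb. The smallest p that 3 against 3 libraries allow is 0.1.

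The largest difference was at Prox1, with 17.7, 27.9 and 21.0 kb in WT and 10.4, 20.8 and 15.7 kb in KO, a difference of -6.56 kb (exact permutation p = 0.2). It was -3.71 kb without WT list 2 and -3.94 kb without KO list 1. KO list 2 lay within the WT range and the other 2 KO lists below it. Foxa2 had 18.7, 28.2 and 18.5 kb in WT and 12.6, 24.6 and 13.7 kb in KO, and Foxa3 had 23.5, 27.6 and 19.6 kb in WT and 13.6, 27.4 and 18.5 kb in KO. Onecut1 had 12.9, 18.5 and 13.8 kb in WT and 8.32, 14.7 and 12.5 kb in KO. At these 3 genes too, KO list 2 lay within the WT range and the other 2 KO lists below it. Foxa1 varied least, with 12.3, 12.9 and 15.2 kb in WT and 11.6, 14.1 and 11.6 kb in KO. Onecut2 had 15.6, 22.5 and 17.1 kb in WT and 11.03, 20.9 and 22.3 kb in KO, with a difference of -0.329 kb (exact permutation p = 0.9) that turned to 3.19 kb without KO list 1.

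No member had all KO lists below or all above the WT lists, where 0.649% of all gene windows had all below and 0.0457% all above. The adjusted p was 0.9 for Onecut2 and 0.6 for each of the other genes (exact permutation tests with Benjamini-Hochberg adjustment over the 6). Peak numbers over the 6 windows were 31, 40 and 48 in WT and 31, 30 and 79 in KO, the last from the list of narrow peaks. The covered share of the Foxa3 window was above that of 99.6% to 99.9% of all gene windows across the 6 lists, and that of Foxa2 above 98.6% to 99.9%. The ranges of Onecut1 (86.5% to 94.8%), Onecut2 (87.0% to 96.1%) and Prox1 (88.4% to 96.8%) overlapped, and Foxa1 lay above 90.9% to 99.2%.

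**Figure D4:**
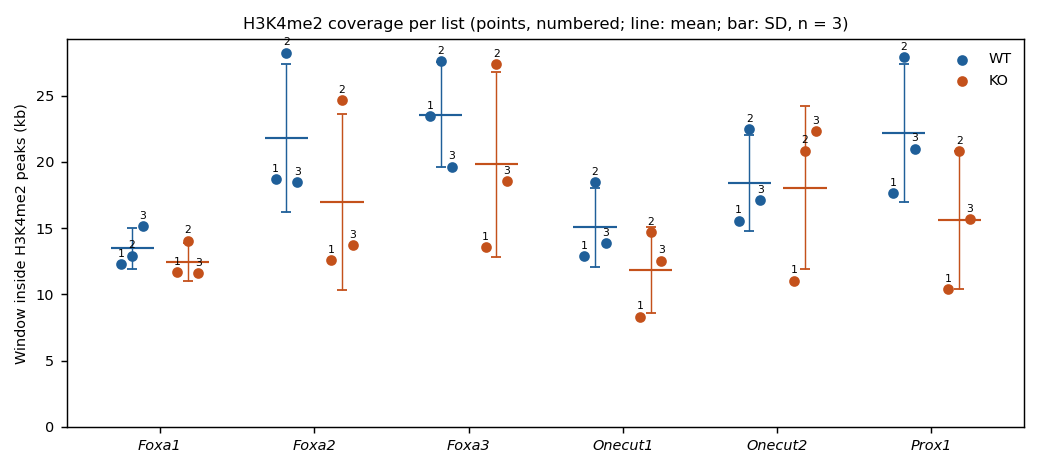
Numbered points give kb of the window inside H3K4me2 peaks (y axis, kb) in each WT (blue) and KO (orange) list, with the mean as a line and the SD as a bar (n = 3). KO list 1 is the lowest of the 3 KO lists at all genes but Foxa1, and WT and KO values overlap at every gene.

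In 1-kb bins, no member bin was lost or gained between genotypes. A list was taken to mark a bin if its peaks covered 500 bp or more of that bin. Of 157 bins marked in any list, 49 (31.2%) were marked in all 6. That share was 11.8% over all marked bins of the genome and 20.7% at 18 other hepatocyte transcription factors. The 79 bins marked in all 3 WT lists were each marked in at least 1 KO list, so 0 were lost. The lost share was 2.01% genome-wide and 0.98% at those other factors. Of the 50 bins marked in all 3 KO lists, 0 were gained, beside 0.175%. The count of 0 lost bins rests on KO list 2, which marked all 79, where KO list 1 marked 62 and KO list 3 marked 56 (100%, 78.5% and 70.9%). Over all bins of the genome marked in all 3 WT lists, KO list 2 marked 96.9%, KO list 1 65.9% and KO list 3 70.1%, so the high share of KO list 2 was genome-wide. Without KO list 2, 10 bins would be lost: 4 at Foxa2, 2 each at Foxa3 and Prox1, 1 each at Onecut1 and Onecut2, and 0 at Foxa1. Without WT list 1, 4 would be, and without WT list 3, 1 would be. With a list left out the rule is looser, so the lost count can only stay or rise.

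Counted by lists, 63 of the 157 bins (40.1%) were marked in more WT than KO lists and 18 (11.5%) in more KO than WT lists. Over all marked bins of the genome the shares were 31.4% and 40.4%, and at the 18 other hepatocyte factors of the comparison list they were 36.7% and 20.1%, also with more bins on the WT side. The KO side includes bins marked in KO list 3 alone, which were 10 of the 18 member bins on that side. KO list 3 also covers the most of the genome (102 Mb, against 28.0 to 91.9 Mb in the other lists). How far it sets the genome-wide KO share was not tested. The WT side was larger at Foxa2 (15 bins against 2), Prox1 (14 against 2), Foxa3 (11 against 2), Onecut1 (9 against 2) and Foxa1 (8 against 1). Onecut2 was the exception, with 6 bins in more WT lists and 9 in more KO lists. Neighbouring bins lie in the same peaks, so they are not independent, and no test was made of these counts.

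The list of 18 other hepatocyte transcription factors, which includes the nuclear receptors HNF4α, FXR (Nr1h4) and PPARα and C/EBPα itself, gives a comparison. It too was chosen with earlier results of these data known. All 18 matched the annotation and 17 had a C/EBPα region. They held 109 regions, of which 65 (59.6%) were kept, 6 lost, 7 gained and 31 mixed, with a median of 6 regions a gene against 4 for the members. The kept share of the members, 39.3%, was below this and near that of all regions, 42.8%. The lost regions of the other factors were 7.69% of the 78 in both WT lists and the gained ones 9.21% of the 76 in both KO lists. Gata4 had 2 lost regions, and gained ones lay at Cebpa, Nr0b2 and Gata4 (1 each) and Nr1i3 and Atf5 (2 each). Hnf4a had the most regions, 14, and Tbx3 had 0. Peak numbers were higher in both KO lists at 3 of the 18 (Nr0b2, Nr1i3 and Atf5), where 0 of the 6 members were. ARID1A had 37 peaks at 15 of the 18. Of the family members outside the 6, Onecut3 had 1 mixed region and Prox2 had 3, of which 1 was kept.

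**Figure D5:**
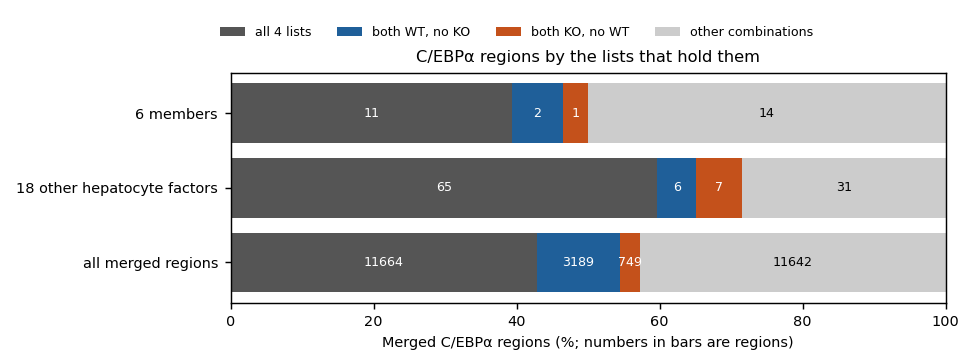
Bars split the merged C/EBPα regions (x axis, percent) of the 6 members, of 18 other hepatocyte factors and of the whole genome by the lists that hold them, with the number of regions printed inside. The members have 11 of 28 regions in all 4 lists, 2 in the WT lists only and 1 in the KO lists only.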

How the data were processed

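The data were 11 deposited peak lists, 1 per library, from C/EBPα, H3K4me2 and V5 ChIP-seq in mouse hepatocytes. Per the submitters' processing notes, the build was mm10 and the tools named, with no role or order, were MACS2 2.0.10.20131216, Bowtie2 2.2.3, HOMER and Picard. The C/EBPα and V5 lists hold the start and end of each peak and no strength, per the files themselves. The H3K4me2 lists add, for each broad peak, the authors' score, fold over local background (a ratio) and −log10 p and −log10 q, per the broadPeak format. The −log10 q served to rank or filter peaks, and the score and fold were not used for any result. Per the labels, C/EBPα and V5 libraries and H3K4me2 libraries came from different kits and instruments, so levels were not compared between targets.

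Gene positions came from RefSeq (GRCm38.p6). Peaks sharing at least 1 bp were merged across the C/EBPα lists, and a peak or region belonged to a window if it shared at least 1 bp with it. Values per library were compared with two-sided exact permutation tests of the difference of means, adjusted by Benjamini-Hochberg over the 6 genes, and each count was set beside the same count over the genome. The sources used here give no read depth, and precision rests on the number of libraries. Python 3.11.15 with numpy 2.4.6, pandas 2.3.3, scipy 1.17.1 and matplotlib 3.10.9 was used, and the counting was tested on simulated data.

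All 6 genes are named. Other genes are named where they lie within 1 kb of a C/EBPα or ARID1A peak in a window, or, among the 18 other factors, where a region was lost or gained or the regions were most or fewest; some results of that list are not reported here. The members and lists were chosen with earlier results of these data known. Alternatives were other windows, overlap rules, peak filters, bins, each library left out and a replicate block.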

Additional observations from a re-analysis of the deposited data

How the results depend on the processing

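With 10 kb on each side, 7 C/EBPα regions were kept, 1 was lost and ARID1A had 5 peaks, and the peak difference (KO minus WT) was 0.5 in all, -0.5 at Foxa2 and 0.5 at Onecut1. With 50 kb, 17 regions were kept, and the H3K4me2 difference at Onecut2 was 0.315 kb. In gene bodies alone, 6 regions were kept, 1 was lost and 0 were gained, the C/EBPα difference at Onecut1 was 0.5, the H3K4me2 difference at Foxa2 was 0.186 kb, 24 bins were kept and ARID1A had 3 peaks. With the 16178 widest C/EBPα peaks of each list, 1 region was lost and 2 were gained, and the difference was 3.5 in all and 0.5 at Prox1. With peaks of at least 395 bp, 6 regions were kept, and the difference was -0.5 at Foxa1 and 1 at Onecut1. ARID1A had 3 peaks of at least the list median of 302 bp. With −log10 q of at least 1.88, 30 bins were kept, with any base of a bin 93, and with 500-bp bins 101 were kept and 1 was lost. As a percent of all bases the list covers, the H3K4me2 difference was -0.0281 in all, 0.000200 at Foxa1 and negative at the other genes. The cause of these changes was not tested, beyond the smaller or larger windows and lists that the settings themselves make. Leaving out single libraries, which loosens the rules for lost and gained, gave 2 to 4 lost, 1 to 4 gained and 11 to 14 kept regions. The C/EBPα difference then ran from -5.5 to 4.5 in all, from -0.5 to 1.5 at Foxa1 and at Foxa2, from 0.5 to 2.5 at Foxa3, from -2.5 to -0.5 at Onecut1, from -1.5 to -0.5 at Onecut2 and from -2 to 1 at Prox1. The H3K4me2 difference ran from -33.5 to -6.03 kb in all, from -1.83 to -0.163 kb at Foxa1, -8.65 to -1.60 kb at Foxa2, -7.49 to -0.598 kb at Foxa3, -4.62 to -1.43 kb at Onecut1, -2.45 to 3.19 kb at Onecut2 and -9.14 to -3.71 kb at Prox1, with 0 to 10 lost, 0 to 1 gained and 49 to 62 kept bins. Where a result was left with 1 library in a group, the permutation test used the libraries that remained.

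By the deviations of gene windows from group means, replicate numbers paired the libraries only in part. For H3K4me2 the same-numbered correlations were 0.628, 0.554 and 0.00358 for numbers 1 to 3. Between numbers 1 and 2 they were -0.376 (WT list 1, KO list 2) and -0.664 (WT list 2, KO list 1). WT list 3 correlated best with KO list 1 (0.239). For C/EBPα the same-numbered correlations were 0.0597 and the others -0.0597. With 2 lists per group the deviations mirror each other, so these cannot show pairing by number. With the number as a replicate block, the difference stayed -0.5 peaks (exact sign-flip p = 1) and -19.7 kb (p = 0.25, the smallest that 3 pairs allow), and no call changed.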
